A study of Mus musculus with 4 samples.

Results

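The coreceptor genes Cd4, Cd8a and Cd8b1 and 4 nuclear factors of the choice between the CD4 and the CD8 lineage, Zbtb7b, Runx3, Tox and Satb1, were followed in single thymocytes. These 7 genes were listed by name for their roles, with earlier results of these data known, and all 7 were present among the 31053 genes of the 4 count matrices. The mice were FVB/N. Wild type (WT) thymus came from 1 mouse of 6 weeks, preleukemic thymus from 1 Tal1/Lmo2 mouse of 6 weeks, and leukemic thymus from 2 Tal1/Lmo2 mice of 3 months, named T-ALL#1 and T-ALL#2 after their disease, acute leukemia of T lymphoblasts. The transgenes of the model are driven by the proximal Lck promoter, which is active in thymocytes, and Tal1 and Lmo2 are oncogenes of human T-ALL. Age and leukemia go together in these 4 mice, so the age of the leukemic mice and their disease cannot be told apart. Every library is 1 mouse, and intervals below are 95% intervals of counting error that leave out the spread between mice.

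CD4 and CD8 are the surface proteins that bind MHC class II and class I beside the T-cell receptor. Thymocytes start without either (double negative), pass a stage with both (double positive), and keep 1 of them after positive selection. The factor Zbtb7b (ThPOK) commits cells to the CD4 lineage and Runx3 to the CD8 lineage, where it silences Cd4, while Tox is needed for CD4 lineage development and Satb1 organizes chromatin at lineage genes in double-positive cells. Cd69 is induced by receptor signaling during selection, and S1pr1 is the receptor by which mature thymocytes leave the thymus.

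After filtering, the libraries held 1975 to 5773 cells, with 24042062 to 70745712 unique molecular identifiers (UMIs, counts of distinct captured transcripts) in all and a median of 3800.5 UMIs per cell in WT, 4888 in preleukemic, 8742 in T-ALL#1 and 17581 in T-ALL#2. Since depth differed, shares of cells are given after each cell was thinned at random to 2000 UMIs, which left 3229, 5226, 5679 and 1975 cells in that order. Cells with fewer UMIs were dropped, 991 in WT, 350 in preleukemic, 94 in T-ALL#1 and 0 in T-ALL#2. Thinned shares thus leave out the shallowest cells, most of all in WT. The thymocyte markers Cd3d, Cd3e, Cd3g, Lck, Thy1 and Trbc2 were present in every library, each in at least 37.3% of cells, and B-like or myeloid-like cells numbered 13 to 29 per library. Levels are in CPM, the UMIs of a gene per 1000000 UMIs of the library. Transcripts of Tal1 were at 0 CPM in WT and at 410, 68.3 and 234 CPM in the Tal1/Lmo2 libraries. Xist was at 1380 CPM in WT and 1869 CPM in preleukemic, with 1 and 5 UMIs of Y-linked genes, which goes against the male sex on both labels, while T-ALL#1 (female by its label) was at 1932 CPM with 1 and T-ALL#2 (male by its label) at 0.0828 CPM with 4413. Pairs of libraries shared at most 9 cell barcodes.

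The stretches just before the starts of Cd8a, Zbtb7b and Runx3 are shown because the levels of these genes separate libraries or cell states in the sections that follow. RefSeq promoters on build GRCm38.p6 were matched for 4 of the 7 genes (Cd8a, Zbtb7b, Runx3 and Satb1), and the 5 windows matched for Satb1 are not printed. The 250 bases before the start are given 5′ to 3′ on the strand of the gene. Capitals mark E-boxes (CANNTG, the letters that bHLH proteins such as Tal1 and its E-protein partners recognise) and letters of RUNX sites (TGTGGT or TGCGGT, either strand, so also ACCACA). Zbtb7b and Runx3 have more than 1 start each.
Cd8a, chr6:71373177-71373426, plus strand: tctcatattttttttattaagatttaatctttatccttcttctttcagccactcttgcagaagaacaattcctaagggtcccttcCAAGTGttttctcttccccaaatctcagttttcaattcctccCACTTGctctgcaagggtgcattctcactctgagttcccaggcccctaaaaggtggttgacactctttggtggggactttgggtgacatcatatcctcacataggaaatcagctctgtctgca
Zbtb7b, inner start, chr3:89387672-89387921, minus strand: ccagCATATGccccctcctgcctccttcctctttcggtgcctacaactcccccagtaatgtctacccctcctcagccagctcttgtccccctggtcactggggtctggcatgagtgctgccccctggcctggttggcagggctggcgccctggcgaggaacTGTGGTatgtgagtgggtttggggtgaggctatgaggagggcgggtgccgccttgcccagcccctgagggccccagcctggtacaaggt
Zbtb7b, outer start, chr3:89393379-89393628, minus strand: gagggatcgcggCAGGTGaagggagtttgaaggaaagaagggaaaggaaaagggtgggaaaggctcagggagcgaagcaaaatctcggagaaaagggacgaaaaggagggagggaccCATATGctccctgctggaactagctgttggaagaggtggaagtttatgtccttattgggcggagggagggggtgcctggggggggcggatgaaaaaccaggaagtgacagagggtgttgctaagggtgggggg
Runx3, upstream start, chr4:135120395-135120644, plus strand: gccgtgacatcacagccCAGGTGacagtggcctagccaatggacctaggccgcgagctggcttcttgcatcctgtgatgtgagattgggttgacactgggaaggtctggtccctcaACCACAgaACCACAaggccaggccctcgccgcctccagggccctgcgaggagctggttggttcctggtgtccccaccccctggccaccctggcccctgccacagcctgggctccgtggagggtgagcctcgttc
The Cd8a window holds 2 E-box matches, the inner Zbtb7b window 1 and the outer Zbtb7b window 2, of which 1 reads CAGGTG. The upstream Runx3 window holds 1 E-box, also CAGGTG, and 2 RUNX matches, while the inner Zbtb7b window holds 1 RUNX match. The window of the second Runx3 start (chr4:135152295-135152544) holds neither. Such matches are common, since 66.2% of 32851 RefSeq promoter windows of this length hold CANNTG, 17.2% CAGGTG, 14.0% TGTGGT and 5.10% TGCGGT, so they describe the sequence and identify no bound site.

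Cd4 and Zbtb7b were the 2 members that stood furthest below WT in the preleukemic thymus, while Runx3 and Tox stayed near the WT level. A gene was called different between 2 libraries when its CPM intervals did not overlap and the ratio was at least 2-fold, among genes of at least 10 CPM in either library. Called lower in preleukemic than in WT were 5 of 7 members, beside 4.88% of the 8417 genes that passed this filter, and called higher were 0 of 7, beside 4.46%. The median log2 ratio of the 7 members was -1.94, against -0.03 over all genes compared. Cd4 and Zbtb7b passed the filter through their WT levels alone.

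**Figure D1:**
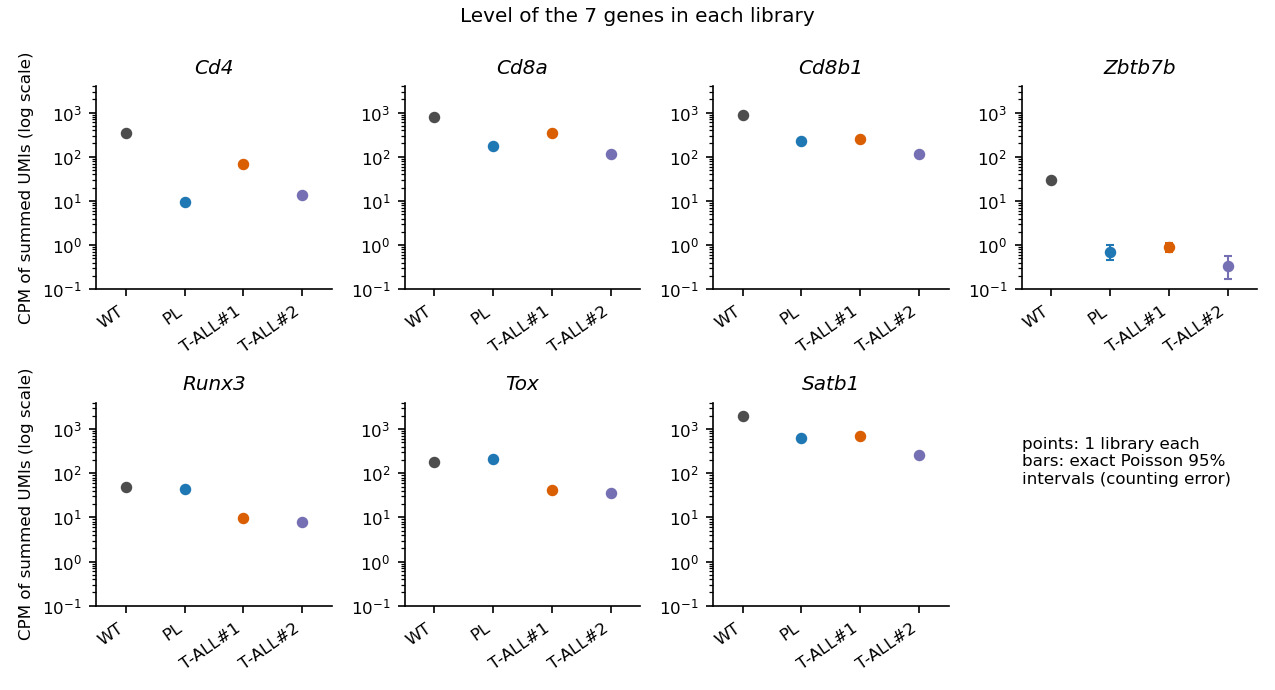
Level of the 7 genes in WT, preleukemic (PL), T-ALL#1 and T-ALL#2, in CPM on a log axis. Points are single libraries and bars exact Poisson intervals, most of them smaller than the point. Of the preleukemic values, those of Cd4 and Zbtb7b lie furthest below WT, at 9.52 and 0.685 CPM, while preleukemic Runx3 and Tox lie at 44.7 and 212 CPM beside 48.1 and 178 CPM in WT.

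Among the coreceptor genes, Cd4 (chr6:124864692-124888221, minus strand) was measured at 342 CPM (334 to 349) in WT, 9.52 (8.60 to 10.5) in preleukemic, 69.2 (67.3 to 71.2) in T-ALL#1 and 13.8 (12.6 to 15.1) in T-ALL#2. No 2 of these intervals overlap, and the preleukemic level was 35.9-fold below WT (32.4 to 39.8). Fewer cells with Cd4 and fewer UMIs in those cells both went into this ratio: Cd4 was detected in 49.9% of thinned WT cells and 1.89% of thinned preleukemic cells, and at full depth a cell with Cd4 held 2.73 UMIs of it on average in WT and 1.57 in preleukemic.

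Both chains of CD8 were reduced less. Cd8a (chr6:71373427-71379173, plus strand) was at 789 CPM in WT, 179 in preleukemic, 337 in T-ALL#1 and 117 in T-ALL#2. Cd8b1 (chr6:71322788-71337494, plus strand), which lies next to Cd8a, was at 894, 233, 258 and 113 CPM in the same order. Preleukemic levels were 4.40-fold and 3.85-fold below WT, so the ratio of WT to preleukemic was several times greater for Cd4 than for either CD8 chain. In thinned cells the chains were also seen together less often than in WT. Of thinned cells with Cd8b1, 87.3% (85.7 to 88.8) had Cd8a in WT, 57.9% (55.1 to 60.7) in preleukemic, 68.9% (67.1 to 70.6) in T-ALL#1 and 40.3% (36.0 to 44.8) in T-ALL#2. With all UMIs these shares were 88.2%, 65.5%, 84.2% and 68.0% in the same order. The leukemic shares thus depended on depth, and T-ALL#2 was no longer the lowest.

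Of the factors, Zbtb7b (chr3:89377644-89394776, minus strand) was at 29.9 CPM (27.8 to 32.2) in WT and at 0.685 (0.455 to 0.991), 0.891 and 0.331 CPM in preleukemic, T-ALL#1 and T-ALL#2. Each Tal1/Lmo2 library lay far below WT, with a preleukemic level 43.7-fold lower (30.0 to 66.2), and Zbtb7b UMIs were found in 473 WT cells but in 21 of 5576 preleukemic cells. Satb1 (chr17:51736187-51833290, minus strand), at 1976 CPM in WT, was at 643 in preleukemic, 687 in T-ALL#1 and 258 in T-ALL#2. It was still detected in 65.2% of thinned preleukemic cells beside 90.8% in WT, and its preleukemic level was 3.07-fold lower.

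Runx3 (chr4:135120652-135177990, plus strand) was at 48.1 CPM (45.4 to 51.0) in WT and 44.7 (42.7 to 46.8) in preleukemic, intervals that overlap. Its leukemic levels were 9.53 CPM in T-ALL#1 and 7.84 in T-ALL#2, 4.70-fold and 5.71-fold below preleukemic. Tox (chr4:6686353-6991557, minus strand) was likewise low in both leukemias, with 178 CPM (173 to 183) in WT, 212 (208 to 217) in preleukemic, 41.5 in T-ALL#1 and 35.8 in T-ALL#2. Preleukemic Tox was at 1.19-fold the WT level, short of the 2-fold limit.

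Compared with WT, all 7 members were called lower in T-ALL#1, beside 12.9% of all genes compared. The same held for T-ALL#2, beside 30.3%. Zbtb7b and Runx3 passed the filter in both comparisons through their WT levels alone, so they could be called lower but not higher. The share of genes called lower in T-ALL#2 was high, so a call there says less about a single member. Against preleukemic, 6 members passed the filter. Cd4 passed through its leukemic level alone and Runx3 through its preleukemic level alone, so each could be called in a single direction only. Cd4 was the 1 member called higher in T-ALL#1 (7.27-fold, beside 4.68% of genes), while Runx3 and Tox were called lower (beside 11.8%). In T-ALL#2, Cd8b1, Runx3, Tox and Satb1 were called lower than preleukemic (beside 27.1%), and Cd4 was 1.45-fold higher, which was not called. With TMM factors, 2 of these members (Runx3 and Tox) rather than 4 were called lower in T-ALL#2 and 1 (Cd4) was called higher. T-ALL#1 and T-ALL#2 thus shared the low Runx3 and Tox and differed in Cd4 by their intervals. The comparisons with WT or with preleukemic each share that library, and the leukemic ratios shift with the scaling. TMM factors, which level out a few abundant genes, raised log2 ratios to WT by 0.05 in preleukemic, 0.31 in T-ALL#1 and 0.55 in T-ALL#2.

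Free RNA in the droplets could be read in T-ALL#2, whose matrix held every barcode. In its 1187978 barcodes with under 100 UMIs, Cd4 was at 10.5 CPM (6.31 to 16.4), which overlaps the 13.8 CPM of its cells. The other 6 members were at 0.601 to 1.42 times in cells what they were in these barcodes. CPM compares the make-up of RNA and not its amount, and these barcodes held 19 Cd4 UMIs in all. Whether a single Cd4 UMI in a T-ALL#2 cell is above background cannot be read from this. In cells with B-like or myeloid-like markers, which should lack Cd4 transcripts of thymocytes, thinned shares with Cd4 were 3 of 17 cells (17.6%) in WT, 0 of 26 in preleukemic, 0 of 14 in T-ALL#1 and 1 of 13 (7.69%) in T-ALL#2, with median depths of 7000, 4971.5, 4371 and 5459 UMIs before thinning. The preleukemic share over all cells (1.89%) lies within what 0 of 26 allows, up to 13.2%. These 26 cells are too few to set so small a share against background. The WT share (49.9%) lies above the upper limit of 43.4% in its own B-like and myeloid-like cells.

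Joint detection sorted the cells into coreceptor classes, and both classes that need Cd4 were small in preleukemic. With Cd8 taken as Cd8a or Cd8b1, cells with both coreceptors were 35.6% (33.9 to 37.2) of thinned WT cells, 1.53% (1.22 to 1.90) of preleukemic, 20.5% (19.5 to 21.6) of T-ALL#1 and 3.59% (2.82 to 4.51) of T-ALL#2. Cells with Cd8 but no Cd4 UMI were 27.6% in WT and 26.8% (25.6 to 28.0) in preleukemic, intervals that overlap, and 44.8% and 34.1% in the leukemias. Cells with Cd4 and no Cd8 were few outside WT, at 14.3% in WT, 0.364% in preleukemic, 2.04% in T-ALL#1 and 1.27% in T-ALL#2. Cells with neither were 22.5% of WT and 71.3% of preleukemic.

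**Figure D2:**
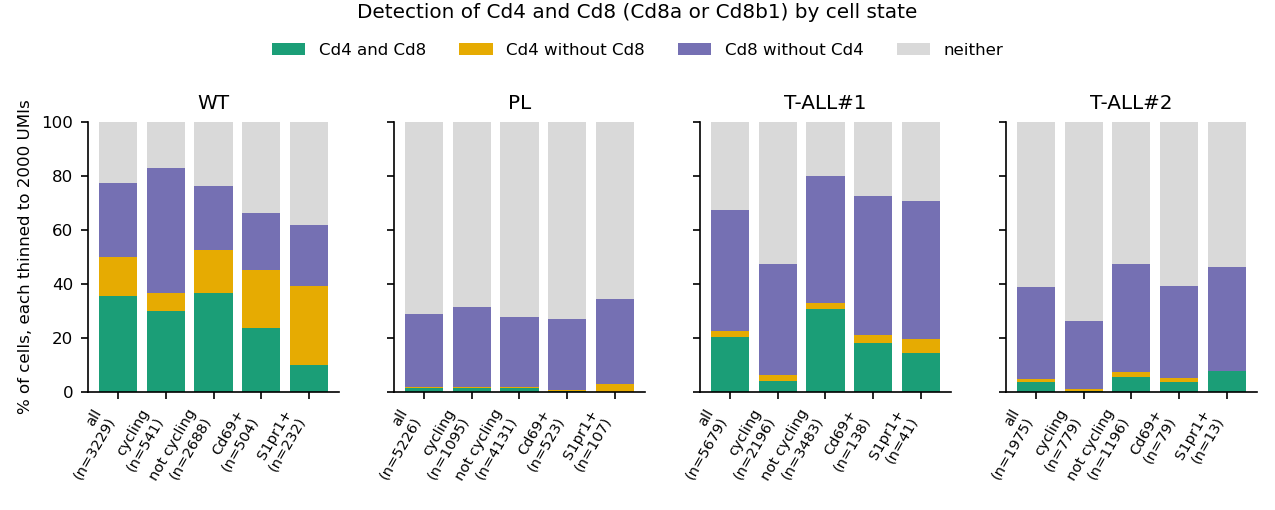
Stacked shares of thinned cells with Cd4 and Cd8, Cd4 alone, Cd8 alone or neither, in percent, per library (PL, preleukemic) and within cycling, not cycling, Cd69+ and S1pr1+ cells. Both Cd4 classes are thin in every preleukemic bar, and the class with Cd4 and Cd8 is smaller in cycling (4.23%) than in other T-ALL#1 cells (30.8%).

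The states of cells changed these classes in different ways. In WT, S1pr1+ cells had Cd4 alone in 29.3% (23.5 to 35.6) and both coreceptors in 9.91% (6.39 to 14.5), the reverse of the order over all WT cells. In preleukemic, 0 of 107 S1pr1+ cells had both (up to 3.39%), 3 of 107 had Cd4 alone and 31.8% had Cd8 alone (23.1 to 41.5). In T-ALL#1 the class with both was 4.23% (3.43 to 5.16) of cycling and 30.8% (29.3 to 32.4) of other cells, a gap that preleukemic (1.55% and 1.53%) did not have.

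Whether the low Cd4 of the preleukemic thymus followed the cell states was asked within gates, that is sets of cells chosen by a gene other than Cd4. The gates share cells, and that with neither Cd69 nor S1pr1 held 67.9% of WT and 75.9% of preleukemic cells. Shares over all genes were computed for whole libraries and not within gates. Cd4 was called lower in preleukemic than in WT in 8 of 8 gates and Satb1 in 7 of 8. Zbtb7b was called lower in 6 of 7 gates and each CD8 chain in 5 of 7. The gate in which Zbtb7b was not called was that of cycling cells, where it was at 7.27 CPM in WT, under the 10 CPM of the filter, and was not tested. Runx3 was called lower in 0 of 7 and Tox in 0 of 8. Cells with Rag1 that were not cycling were not alike between libraries, since 94.8% had Cd8 in WT and 65.1% in preleukemic. In this gate Cd4 was at 789 CPM in WT and 21.4 in preleukemic (36.9-fold, 31.1 to 44.0). In Cd69+ cells it was at 278 and 9.08 CPM, in cycling cells at 178 and 7.59 CPM and in S1pr1+ cells at 235 and 15.5 CPM, so WT was higher in each. The smallest ratio was in Zbtb7b+ cells, at 299 against 31.7 CPM (9.42-fold, 4.02 to 29.1), and rests on 5 preleukemic UMIs. In S1pr1+ cells the CD8 chains were not called, since Cd8a was at 285 and 218 CPM and Cd8b1 at 344 and 308 CPM.

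**Figure D3:**
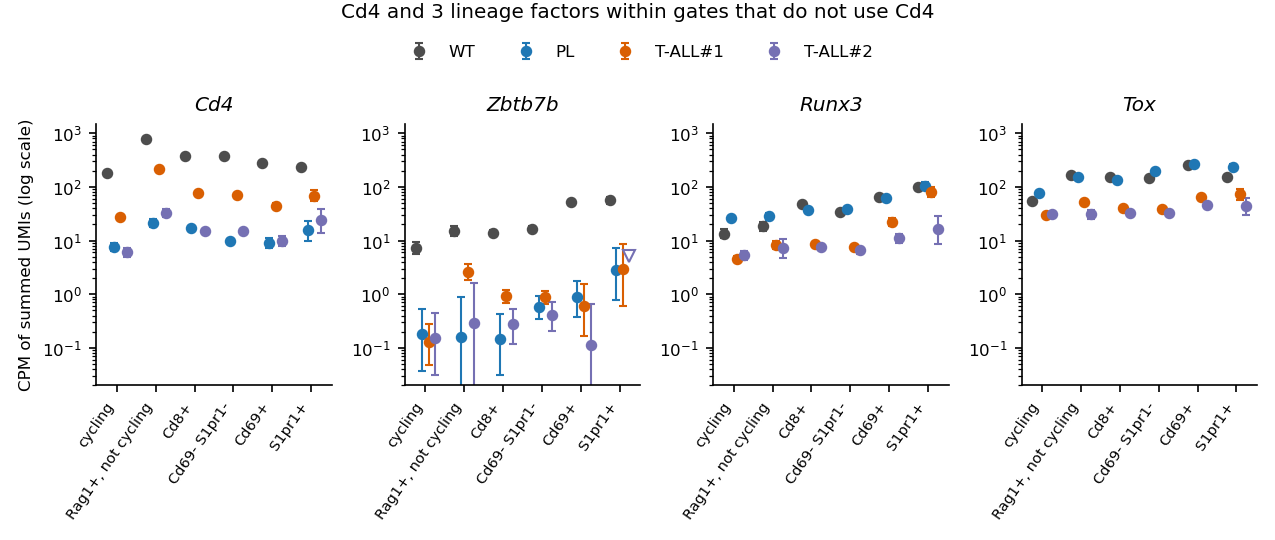
Cd4, Zbtb7b, Runx3 and Tox in 6 gates that do not use Cd4, as CPM on a log axis with exact Poisson intervals cut at the lower edge (PL, preleukemic). WT Cd4 and Zbtb7b lie above the other libraries in every gate, preleukemic Runx3 and Tox lie nearer to WT than preleukemic Cd4 does, and the open triangle marks the limit that 0 UMIs of Zbtb7b in 52 T-ALL#2 cells allow.

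Of the 4 factors, Runx3 was called higher in preleukemic in 1 of these gates, Zbtb7b+ cells, at 101 CPM (58.0 to 165, 16 UMIs in 21 cells), 2.25-fold the WT level (1.26 to 3.77), and no other factor was called higher in any. Runx3, which silences Cd4 in the CD8 lineage, was at 18.3 CPM in WT and 28.3 CPM in preleukemic cells with Rag1 that were not cycling (1.55-fold, 1.20 to 2.00), and at 48.0 and 37.5 CPM in Cd8+ cells. Its cycling level was 1.92-fold higher in preleukemic (26.0 against 13.5 CPM, interval of the ratio 1.57 to 2.36), still under the 2-fold limit. Zbtb7b in cells with Rag1 was at 15.3 CPM in WT and rested on 1 UMI (0.156 CPM) in preleukemic. Among Runx3+ cells, Cd4 was at 126 CPM in WT and 7.27 CPM in preleukemic, 17.3-fold lower (13.8 to 22.1), where the ratio over all cells was 35.9.

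Coreceptors in cells with Zbtb7b were read against their shares over all cells, without thinning. In WT, 390 of 473 Zbtb7b+ cells (82.5%) had Cd4 and 152 (32.1%, 27.9 to 36.6) had Cd8. In preleukemic, 3 of 21 had Cd4 (14.3%, 3.05 to 36.3) and 3 of 21 had Cd8. In T-ALL#1, 56 of 63 Zbtb7b+ cells (88.9%, 78.4 to 95.4) had Cd8 and 42 had Cd4, beside 90.3% with Cd8 and 47.6% with Cd4 over all 5773 cells of that library. The 63 T-ALL#1 cells held 1 Zbtb7b UMI each. Over all WT cells, 76.0% had Cd8 and 71.4% had Cd4. The summed Cd8a and Cd8b1 level in Zbtb7b+ cells was 156 CPM in WT, 120 in preleukemic, 992 in T-ALL#1 and 433 in T-ALL#2.

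A log2 odds ratio of joint detection in thinned cells puts the pairs on 1 scale, with 0 for no relation and with an interval over cells of 1 library. Cd4 and Cd8 went together in every library, at 1.02 (0.81 to 1.23) in WT, 3.46 (2.74 to 4.18) in preleukemic, 2.87 in T-ALL#1 and 2.33 in T-ALL#2. Satb1 went with Cd4 at 2.28, 2.55, 2.07 and 1.82 in that order. Few as they were, preleukemic cells with Cd4 mostly held Cd8 and Satb1.

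Cd4 and Runx3 avoided each other most in WT. Their log2 odds ratio was -2.36 (-2.84 to -1.87) there, -0.30 (-1.39 to 0.78) in preleukemic, -0.94 (-1.67 to -0.21) in T-ALL#1 and -0.69 (-3.06 to 1.67) in T-ALL#2. The preleukemic value rests on 7 cells with both. For Cd8 and Zbtb7b it was -3.32 (-3.89 to -2.75) in WT and 1.98 (0.07 to 3.89) in T-ALL#1, where at full depth the sign turned to -0.31. Tox and Cd8 were apart in WT (-0.81) and preleukemic (-1.01) and at 0.01 (-0.27 to 0.29) in T-ALL#1, where the value with all UMIs was -1.17. Runx3 and Cd8 were at 0.02 (-0.37 to 0.41) in WT and -0.08 (-0.38 to 0.23) in preleukemic, and at -0.69 and 0.11 with all UMIs.

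Because both states of a library are measured in the same mouse, states could be compared over the 4 libraries. UMIs were summed per library and state and fitted with edgeR's quasi-likelihood test with a library block, with Benjamini-Hochberg adjustment over all genes tested. The 4 mice are of 3 kinds, so the test asks for a change shared by WT, preleukemic and leukemic thymus. Gene detection and depth move together, and the median depth of cycling cells was 12018 UMIs in WT, against 3417.5 in other cells, so states were also assigned after thinning the cells. Without the library block, which puts differences between mice into the spread, no member passed in any of the 4 comparisons that follow.

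Cycling cells had less of 6 of the 7 members, beside 27.9% of genes tested called lower and 26.4% called higher. With edgeR's quasi-likelihood test, Zbtb7b fell most, with a log2 fold of -2.68 ± 0.33 (SE) and an adjusted p of 0.00109, followed by Runx3 (-1.47 ± 0.23, adjusted p = 0.00252), Cd4 (-1.42 ± 0.32, adjusted p = 0.0106) and Tox (-1.23 ± 0.27, adjusted p = 0.0101). Zbtb7b in cycling cells rested on 66 UMIs in WT and on 3, 6 and 3 in preleukemic, T-ALL#1 and T-ALL#2. In T-ALL#2 the interval of its log2 ratio (-4.39 to 0.13) included 0. The change of Tox was uneven between the groups. Its CPM in cycling and other cells was 55.5 and 252 in WT, 77.9 and 307 in preleukemic, 30.4 and 63.4 in T-ALL#1 and 31.2 and 41.4 in T-ALL#2. Satb1 (-0.73 ± 0.13, adjusted p = 0.00397) and Cd8b1 (-0.91 ± 0.27, adjusted p = 0.0306) also fell in edgeR's test, while Cd8a did not pass (-0.38 ± 0.22, adjusted p = 0.176). Cd8b1 lost its call without T-ALL#1 (-0.63, adjusted p = 0.0890) and without T-ALL#2 (-0.79, adjusted p = 0.100). Scaling by library totals changed the split of all calls from 3102 higher and 3278 lower to 2346 and 4445.

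Cd69+ cells had more Runx3 and Tox and less of all 3 coreceptor genes. Called higher were 2 of 7 members beside 1.97% of genes tested, and called lower were 3 of 7 beside 0.876%. In edgeR's quasi-likelihood test, Tox rose by a log2 fold of 0.61 ± 0.09 (adjusted p = 0.0131) and Runx3 by 0.83 ± 0.14 (adjusted p = 0.0273). Runx3 CPM in Cd69+ and other cells was 65.0 and 41.6 in WT, 62.5 and 39.7 in preleukemic, 22.5 and 8.20 in T-ALL#1 and 11.0 and 6.85 in T-ALL#2, so it was higher in Cd69+ cells of all 4. Cd8a fell (-0.67 ± 0.09, adjusted p = 0.0115), as did Cd4 (-0.46 ± 0.08, adjusted p = 0.0223) and Cd8b1 (-0.60 ± 0.11, adjusted p = 0.0374).

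Several of these calls needed every library or the full depth. The Cd4 change turned to 0.17 when cells were thinned before Cd69 was read, and its call was lost without preleukemic (-0.52, adjusted p = 0.0816), without T-ALL#1 (-0.36, adjusted p = 0.128) or without T-ALL#2 (-0.44, adjusted p = 0.0509). Runx3 lost its call without WT (0.87, adjusted p = 0.134) or preleukemic (0.94, adjusted p = 0.121), and Cd8b1 without T-ALL#1 (-0.58, adjusted p = 0.115) or T-ALL#2 (-0.59, adjusted p = 0.102). Zbtb7b, which did not pass (0.88 ± 0.32, adjusted p = 0.180), was at 52.2 CPM in Cd69+ and 21.4 CPM in other WT cells and under 1 CPM in both states of the Tal1/Lmo2 libraries.

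S1pr1+ cells, the most mature by this marker, had more of both lineage factors. Called higher were Zbtb7b and Runx3, 2 of 7 members, beside 8.75% of genes tested, and called lower were 0 of 7, beside 11.4%. Zbtb7b rose by 1.43 ± 0.32 (log2, edgeR's quasi-likelihood test, adjusted p = 0.00452), from 25.5 to 56.1 CPM in WT and from 0.609 to 2.83 CPM in preleukemic, with 0 UMIs in the 52 S1pr1+ cells of T-ALL#2. Runx3 rose by 1.80 ± 0.41 (edgeR, adjusted p = 0.0439). Its CPM in S1pr1+ and other cells was 98.9 and 39.5 in WT, 106 and 42.5 in preleukemic, 80.7 and 8.49 in T-ALL#1 and 16.7 and 7.66 in T-ALL#2. The WT and preleukemic values of Runx3 were close in both states. Without WT the adjusted p was 0.184 for Zbtb7b (log2 1.68) and 0.226 for Runx3 (log2 1.93), and Runx3 also missed the threshold without preleukemic (2.02, adjusted p = 0.0619) and without T-ALL#2 (1.94, adjusted p = 0.0572).

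The CD8 chains were where S1pr1+ cells of WT stood apart. Cd8a fell from 875 to 285 CPM in WT and was at 178 and 218 CPM in preleukemic, 337 and 332 CPM in T-ALL#1 and 114 and 269 CPM in T-ALL#2, other cells first. Over the 4 libraries it did not pass (log2 -0.05 ± 0.52, edgeR adjusted p = 0.970). Cd8b1 likewise did not pass (0.10 ± 0.49, edgeR adjusted p = 0.932), and passed with a log2 fold of 0.57 without WT. S1pr1+ preleukemic cells thus had CD8 levels near those of S1pr1+ WT cells while other preleukemic cells were far below WT.

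**Figure D4:**
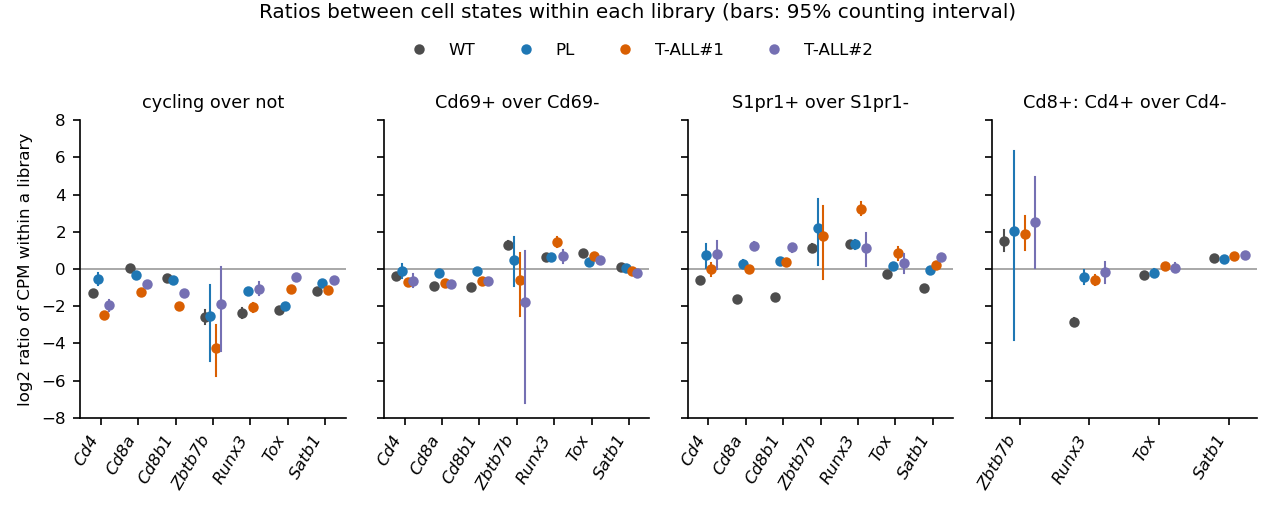
log2 ratio of CPM between 2 cell states of the same library, for each gene and library (PL, preleukemic), with conditional binomial 95% intervals and no point for Zbtb7b of T-ALL#2 in S1pr1+ cells, which had 0 UMIs. Runx3 is above 0 in all 4 libraries for Cd69 and S1pr1, all 4 Cd8a and Cd8b1 libraries are below 0 for Cd69, WT alone is far below 0 for Cd8a and Cd8b1 in S1pr1+ cells, and Runx3 is lowest in WT where Cd4 was detected in Cd8+ cells.

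Among Cd8+ cells, those with Cd4 (the double-positive pattern) were set against those without. Of the 4 factors, Zbtb7b and Satb1 were called higher in cells with Cd4, beside 0.747% of genes tested, and 0 of 4 were called lower, beside 0.677%. Satb1 was higher in all 4 libraries, by 0.55 ± 0.07 (log2, edgeR's quasi-likelihood test, adjusted p = 0.0206), with 2276 against 1522 CPM in WT, 1166 against 790 in preleukemic, 936 against 586 in T-ALL#1 and 411 against 248 in T-ALL#2. Zbtb7b rose by 1.64 ± 0.28 (edgeR, adjusted p = 0.0399), at 16.9 against 6.02 CPM in WT and under 2 CPM in the other libraries. Both calls were lost without preleukemic (Zbtb7b 1.63, adjusted p = 0.0844, and Satb1 0.57, adjusted p = 0.0769). Zbtb7b also missed the threshold without T-ALL#2 (1.57, adjusted p = 0.0590) and Satb1 without T-ALL#1 (0.56, adjusted p = 0.102). The change of Zbtb7b was 0.91 and not called when cells were thinned before Cd4 was read. Median UMIs of cells with and without Cd4 were 2946 and 4233 in WT and 6574 and 6133 in preleukemic. They were 5461.5 and 12695 in T-ALL#1 and 10492 and 18325 in T-ALL#2. Cycling, in which both Cd4 and Satb1 were lower, was not held fixed, and its part was not tested.

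Runx3 in this comparison did not pass (-1.25 ± 0.52, edgeR adjusted p = 0.267), and its libraries were far apart. It was at 16.8 CPM in WT cells with Cd4 and 120 CPM in those without, and at 28.9 and 38.5 CPM in preleukemic, 6.61 and 9.79 CPM in T-ALL#1 and 7.03 and 7.84 CPM in T-ALL#2. The log2 difference was -2.84 (-3.07 to -2.61) in WT and -0.41 (-0.81 to -0.04) in preleukemic. Cells with Cd8 and no Cd4 UMI thus had high Runx3 in WT and, in preleukemic, nearly the Runx3 of cells with both coreceptors. Tox did not pass either (-0.16 ± 0.10, edgeR adjusted p = 0.424).

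Lists of genes that share the pathways of the 7 members were read beside the 4.88% of all genes called lower in preleukemic and the 4.46% called higher. Of 18 regulators of the Cd4 and Cd8 loci, Myb (580 against 251 CPM) and Runx1 (303 against 151 CPM) were called higher in preleukemic than in WT. Ikzf3 (21.2 against 98.5 CPM) was called lower and 15 were not called. Calls this few do not set the regulator list apart from all genes. Of 9 CD4-lineage and helper genes that passed the filter, 4 were called lower, most of all Cd40lg (0.465 against 19.5 CPM), the helper ligand of B cells, and Tnfrsf4 (2.91 against 37.3 CPM), and 2 higher, Lgals1 and Myb. Of 7 CD8-lineage and cytotoxic genes, 4 were lower, led by Itgae (4.65 against 19.5 CPM) and Xcl1 (5.31 against 19.8 CPM), and Gzma was higher at 347 against 85.4 CPM.

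Genes of receptor signaling and selection were read against the same 4.88% of all genes called lower and 4.46% called higher. Of 17 coreceptor signaling genes, 3 were lower, with Egr2 (1.64 against 18.3 CPM) and Egr1 (17.1 against 89.6 CPM) furthest, and 0 higher. In the list of selection and maturation, 8 of 12 were lower, with Ccr7 (10.1-fold) and Itm2a (6.47-fold) furthest. Both recombinase genes of the double-positive stage were lower, Rag2 (12.5 against 63.3 CPM) and Rag1 (112 against 475 CPM), while Arpp21, Bcl6, Themis, Aqp11, Cd24a, Cd1d1 and Dntt of the same stage were not called, Cd24a at 1.49-fold and Dntt at 1.00-fold the WT level. The medians of the signaling and selection lists were -0.51 and -1.40 on the log2 scale, beside -0.03 over all genes compared.

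Within libraries, the same lists moved with the states. In cycling cells edgeR's test called 8 of 10 cytotoxic and 11 of 17 coreceptor signaling genes lower (beside 27.9% of all genes tested) and none of either higher (beside 26.4%). In Cd69+ cells it called 4 of 17 coreceptor signaling genes higher (beside 1.97%), and both Rag1 and Rag2 lower (beside 0.876%). In S1pr1+ cells, where Runx3 was higher, 7 of 11 cytotoxic genes were called higher (beside 8.75%) and 0 lower (beside 11.4%). Among Cd8+ cells, those with Cd4 had Rag1, Themis and Bcl6, genes of the double-positive stage, higher (beside 0.747%), and 6 of 10 cytotoxic genes lower (beside 0.677%), with Ccl5 (log2 -5.02 ± 0.22, edgeR adjusted p = 3.67e-04) as an example picked after its value was seen.

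Markers of gamma-delta T cells, which do not use the CD4 and CD8 choice, moved with the preleukemic library. The summed level of Trdc, Tcrg-C1, Tcrg-C2, Tcrg-C4 and Sox13, of which all 5 had UMIs in every library, was 307 CPM in WT, 2144 in preleukemic, 162 in T-ALL#1 and 312 in T-ALL#2, and at least 1 of them was found in 17.1%, 89.8%, 31.6% and 80.6% of cells. In cells with none (3497 in WT and 568 in preleukemic), Cd4 was at 453 CPM in WT and 36.2 CPM in preleukemic, 12.5-fold lower (10.3 to 15.5). Zbtb7b remained low there too, at 43.3 against 1.48 CPM (29.3-fold, 11.4 to 108). The CD8 chains came closer, since both were 1.53-fold lower in these cells and were no longer called. Runx3 was at a ratio of 1.00 (0.847 to 1.19) and Satb1 2.21-fold lower.

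**Figure D5:**
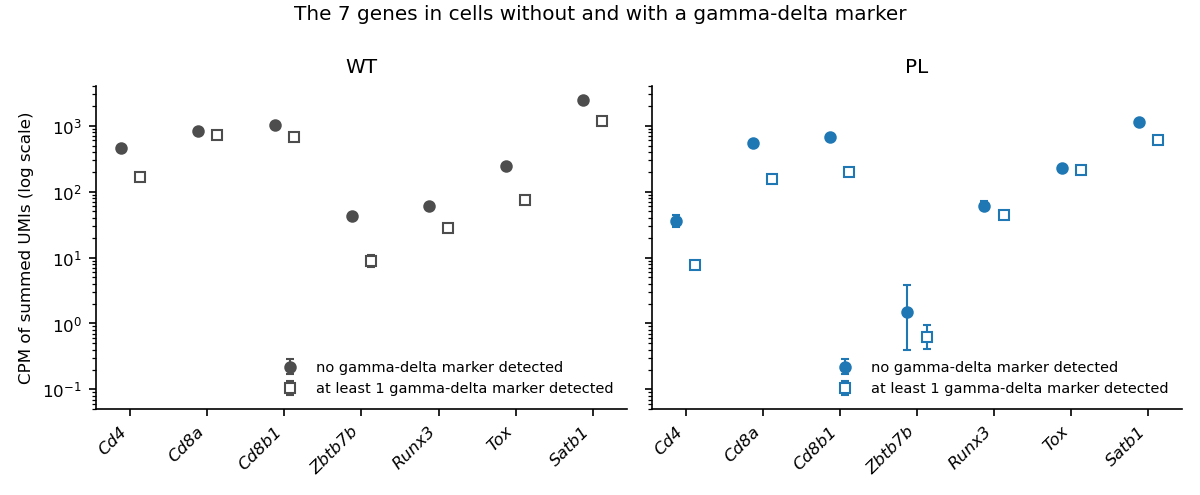
CPM of the 7 genes on a log axis in WT and preleukemic (PL) cells without (circles) and with (squares) at least 1 UMI of a gamma-delta marker, with exact Poisson intervals. Preleukemic Cd4 is higher in cells without a marker (36.2 CPM) than with 1 (7.63 CPM), and WT exceeds preleukemic Cd4 in both sets.

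In cells without a marker, the ratio of WT to preleukemic Tox was 1.07 (0.978 to 1.16). Cells with a marker gave wider differences for Cd8a and Tox. In them Cd4 was at 165 CPM in WT and 7.63 CPM in preleukemic (21.6-fold, 19.1 to 24.6), Runx3 was 1.56-fold and Tox 2.81-fold higher in preleukemic, and Cd8a was 4.74-fold lower. Detection of a marker depends on depth. Median UMIs were 9361 with and 3273 without a marker in WT and 5045 and 3939 in preleukemic. Whether these are gamma-delta cells or other cells that transcribe the loci was not tested here. The paper's surface staining found no rise of gamma-delta thymocytes in the preleukemic thymus. For preleukemic double-negative progenitors it proposes that these gene segments are transcribed in their germline form. A list of dendritic markers summed to 803, 615, 63.7 and 40.2 CPM in the order WT, preleukemic, T-ALL#1 and T-ALL#2. That list includes Ccr9, which the paper reports as high in a cluster of preleukemic thymocytes. The most widespread marker of the list was found in 80.3% of WT and 71.9% of preleukemic cells, so its sum does not measure dendritic cells. Markers of NK cells summed to 70.0, 66.0, 8.04 and 1.66 CPM in the same order. The part of dendritic and NK cells in the results was not tested.

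Genes most like each member were sought over 16 points, the 4 libraries by 4 exclusive states, among 4674 genes of at least 50 CPM in any point. The points share libraries and depth, so the correlations describe and carry no p. Cd4 was most like Nsg2 (Pearson r = 0.96), Plxnd1 and Gm38405 (both 0.94), and Cd8a most like Bcl2l1 (0.98), Nsg2 and Glcci1 (both 0.97). Cd8b1 was most like Socs1 and Cd8a (both 0.96) and Rmnd5a (0.95). Zbtb7b followed Tnfrsf4 (0.96), Sipa1 (0.95) and Mindy3 (0.93), while Runx3 followed Gimap3 (0.98), Cd53 and Gimap8 (both 0.97). For Tox the nearest were Jak2 (0.99), Cdc42se1 (0.98) and Tdrp (0.97), and for Satb1 they were Pvr, Klc3 and Pip4k2a (each 0.98).

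Among the members themselves, correlations over these points differed by degree. Runx3 and Tox had r = 0.94 with each other, 0.32 and 0.26 with Cd4, 0.55 and 0.53 with Cd8b1, 0.60 and 0.55 with Zbtb7b and 0.65 each with Satb1. Cd4 had r = 0.92 with Cd8a, 0.87 with Cd8b1 and with Satb1 and 0.85 with Zbtb7b.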

How the data were processed

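Per the labels and the methods, viable cells of dissociated thymus were sorted after red cell lysis and sequenced with the 10x Genomics 3′ assay. The authors deposited raw UMI counts, not normalized, for each gene in each barcode. By their headers the files were written with Cell Ranger 3.0.2 (WT, preleukemic and T-ALL#1) and 4 (T-ALL#2), and the labels name build mm10. More than 1 chemistry version is named without a library, and T-ALL#2 differs in software version as well, so these cannot be told apart from the mouse. Symbols and coordinates were taken from GENCODE vM21 on GRCm38.

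Cells with more than 500 genes and under 10% mitochondrial UMIs were kept, and in T-ALL#2, deposited as every barcode, those with at least 3416 UMIs. This kept 4220 of 5879 WT, 5576 of 6964 preleukemic, 5773 of 7726 T-ALL#1 and 1975 of 2700 T-ALL#2 barcodes. Doublets were not called. Cells were cycling above 81.2 UMIs of 97 cell-cycle genes per 10000, from a 2-means split. From 6.00% to 13.8% of cells per library lay within 0.25 log2 of that threshold.

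CPM was computed from UMIs summed per library and gate, with exact Poisson intervals, shares with Clopper-Pearson intervals and ratios with conditional binomial intervals. Libraries were not tested against each other, because WT and preleukemic are single mice. State sums were tested with edgeR 4.0.16 in R 4.3.3 (quasi-likelihood, robust, TMM, library block, Benjamini-Hochberg threshold 0.05), and DESeq2 1.42.0 was an alternative. Both sums of a library come from the same mouse, which is the pairing of the block. Genes that define a state stayed among the genes counted as called. The code was tested on simulated data. The members and lists were chosen with earlier results of these data known. Named in the text are the 7 members in full, the 2 listed genes with the largest called ratio in each direction per list, and the 3 genes most alike to each member. Some results on the list of double-positive stage genes are not reported here.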

Additional observations from a re-analysis of the deposited data

Results flagged for a closer look

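Some members moved one way in WT cells and the other way in another group between the same 2 states. The values are log2 ratios of CPM between states of the same library, and the differences between groups were not tested, since each library is 1 mouse. Cycling over other cells, Cd8a was at 0.05 in WT, -0.33 in preleukemic, -1.21 in T-ALL#1 and -0.78 in T-ALL#2. For Cd69+ over other cells, Satb1 was at 0.09 in WT and 0.05 in preleukemic, and at -0.13 in T-ALL#1 and -0.20 in T-ALL#2, all small values. S1pr1+ over other cells gave the widest contrasts. Cd8b1 was at -1.52 in WT, 0.42 in preleukemic, 0.39 in T-ALL#1 and 1.16 in T-ALL#2. Cd8a was at -1.62 in WT and 0.29 in preleukemic, and Cd4 at -0.61 in WT and 0.74 in preleukemic, the latter from 22 UMIs in S1pr1+ cells. Satb1 was at -1.02 in WT, 0.20 in T-ALL#1 and 0.62 in T-ALL#2.

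Members were also present in data outside the comparisons, the T-ALL#2 barcodes with under 100 UMIs. There Cd4 was at 10.5 CPM, Cd8a at 89.3, Cd8b1 at 89.8, Runx3 at 5.51, Tox at 28.1 and Satb1 at 217 CPM, above the limit that a count of 0 would allow. The order of these levels is that of the T-ALL#2 cells except that Cd8a and Cd8b1 change places, with intervals that overlap.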

How the results depend on the processing

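Each library is 1 mouse, so no spread between mice is known for WT or preleukemic. In CPM, the members differed little between T-ALL#2 cells and its near-empty barcodes. Of the main results, 91 of 117 values under other settings and 10 of 16 with 1 library left out stayed on the same side and within the limits set for a move. Between libraries, leaving out cells with a gamma-delta marker, chosen after seeing the data, left 3 members lower in preleukemic than in WT. Members higher in T-ALL#1 than in preleukemic numbered 2 in place of 1 with TMM factors, with a mean over cells or in thinned cells, and 1 in place of 0 was higher in T-ALL#2 under the same settings. With TMM factors, 2 in place of 4 were lower in T-ALL#2 than in preleukemic. The joint detection of Cd4 and Cd8 depended on depth, at 55.1%, 3.93%, 45.6% and 16.2% with all UMIs and 29.2%, 0.723%, 9.90% and 1.27% in cells thinned to 1000 UMIs (WT, preleukemic, T-ALL#1, T-ALL#2). The log2 odds ratio of Cd8 and Zbtb7b in T-ALL#1 turned to -0.31 with all UMIs and -1.94 with at least 2 UMIs. Without the replicate block, which pairs both sums of a mouse, edgeR called 1366 genes for cycling, 1 for S1pr1 (S1pr1 itself), 0 for Cd69 (41 at unadjusted p under 0.05, and 431 by DESeq2 with the block) and 0 for Cd4 in Cd8+ cells (106 unadjusted, and 476 by DESeq2 with the block), and no call of a member held in these 4 comparisons. Calls for Cd69 were 328 in the reported fit, 782 with every gene, 1847 with states read in thinned cells, where Cd4 turned to 0.17, and 23 to 475 with 1 library left out. Calls for Cd4 in Cd8+ cells were 164 in the reported fit, 636 with every gene, 95 with an upper limit on genes per cell, 2867 in thinned cells and 27 to 105 with 1 library left out, and library totals moved their split from 86 higher and 78 lower to 148 and 39. The causes were not tested.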
